A study of Mus musculus with 2 samples.

Results

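Amino acid transporters were taken as all genes of the solute carrier families Slc1, Slc3, Slc6, Slc7, Slc36, Slc38 and Slc43 that had a symbol of their own in the array's annotation. The rule used names and no measured difference, though it was set with earlier results of these data known. It took 63 of the 18193 genes on the array. Of these, 3 are opposite-strand genes (Slc36a1os, Slc6a19os and Slc7a6os) that only share a carrier's name, which left 60 transporter genes. RNA came from 2 samples sorted from spleens of C57BL/6 mice that bore hepatocellular carcinoma, a liver cancer, and each sample was read on 1 Affymetrix array. The CD45-negative sample was sorted as positive for Ter119, a surface protein of red cells and their precursors, and negative for CD45, the protein that marks white cells. The CD45-positive sample held the white cells of the same mice and served as the control, and both groups shared the tumour and the strain. The age of the mice, how the tumours arose, how many animals were pooled and whether Ter119 entered the control gate are not given in the sources used here.

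Amino acids cross membranes through carrier proteins. Some are single polypeptides, while light chains of the Slc7 family need a heavy chain of the Slc3 family to reach the cell surface. Red cell precursors need glycine to build haem and a broad supply of amino acids to make globin. When supply falls short, or when haem runs low, kinases that phosphorylate the translation factor eIF2alpha raise ATF4, a transcription factor that switches on amino acid carriers and synthetic enzymes.

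The values are deposited probe set intensities on a linear scale in arbitrary units. A gene was called measured in an array when its intensity exceeded 101.1, the 95th percentile of 80 probe sets for smell and vomeronasal receptors, which were taken as silent in spleen. The median over those probe sets was 33.7 for the CD45-negative and 17.5 for the CD45-positive cells, which makes dim signal unequal. For a gene under that level in 1 array only a bound on the fold is given, written "at least". Such bounds use 127 where the dim array was the CD45-negative one, since that array's own percentile was higher. With 1 array a group no test was possible, and no difference below can be set against a spread between replicates. Probe sets of the same gene differed with an SD of 0.83 on the log2 scale, which is not replicate error. Differences of at least 4-fold were counted. Each value given for a gene, ranges included, is that of its probe set with the highest mean log2 intensity over the arrays, unless another probe set is named.

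The sort was visible in marker genes. All 8 measured erythroid markers were at least 4-fold higher in the CD45-negative array, with summed intensities of 379305 against 10842, while the probe set of the globin gene Hba-a1 stayed dim (16.5 and 6.2). All 6 platelet and megakaryocyte markers were at least 4-fold higher as well (sum 34822 against 1642). All markers of B cells (4), T cells (5), natural killer cells (4), neutrophils (5), macrophages (5) and white cells at large (5) were at least 4-fold lower. Of 5 plasma cell markers, Jchain and Mzb1 were, and Sdc1 (46.5 against 415.1) was at least 3.26-fold lower. Liver and liver tumour markers summed to 409 and 377, and endothelial and stromal markers to 216 and 1653. Of the 1653, Pecam1 alone gave 1350.7, and only 2 of the 6 endothelial and stromal markers were measured in at least 1 array. No marker of any list was at 0.

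**Figure D1:**
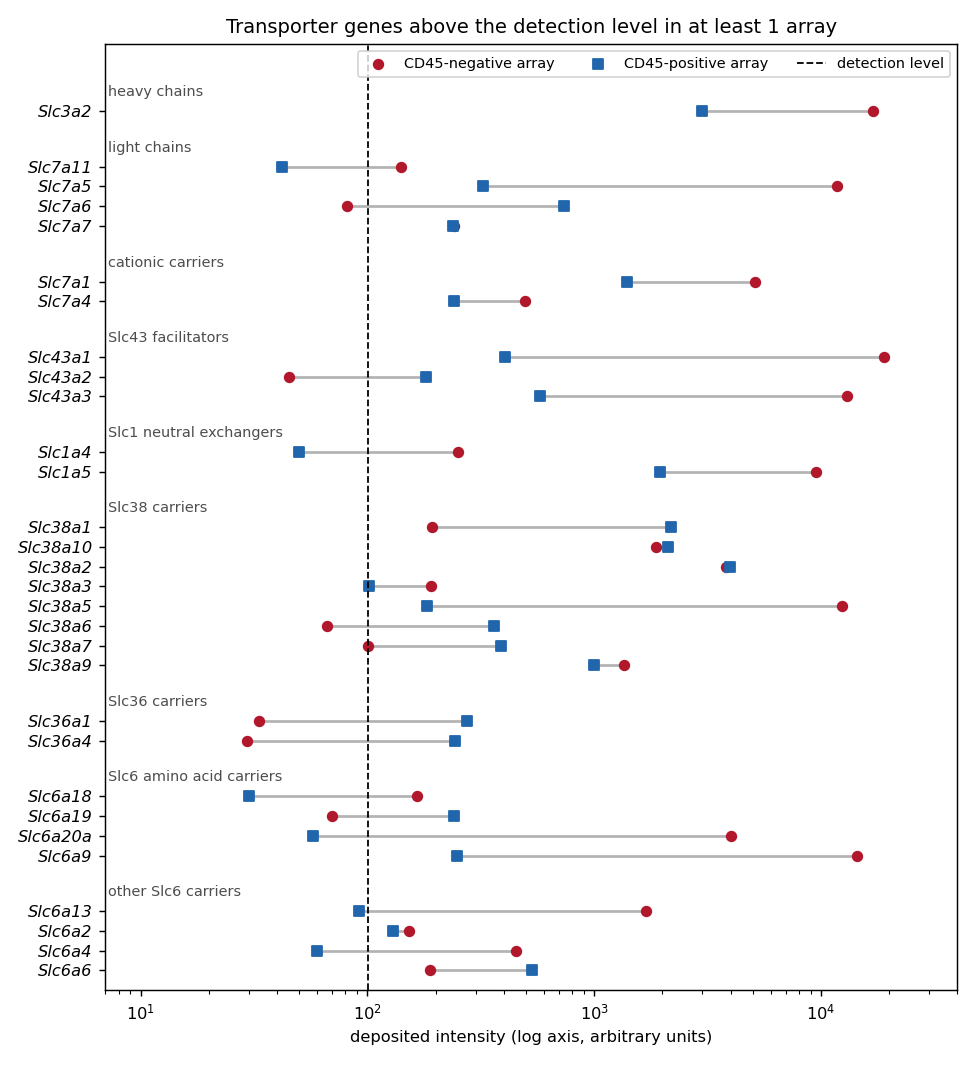
Deposited intensity (log axis, arbitrary units) of the 30 transporter genes above the detection level of 101.1 (dashed line) in at least 1 array, grouped by role, with circles for the CD45-negative and squares for the CD45-positive array. Slc38a5, Slc6a9, Slc43a1 and Slc7a5 have circles far to the right of their squares, while Slc38a1 and Slc7a6 lie the other way round.

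Of the 60 transporter genes, 30 were measured in at least 1 array, 17 of them in both, 6 in the CD45-negative array alone and 7 in the CD45-positive array alone. In the CD45-negative cells, 10 of the 30 were at least 4-fold higher (33.3%), against 8.31% of the 11793 genes measured on the array. With no detection level applied, 15 of the 60 were higher (25.0%), against 2885 of 18193 genes (15.9%). At least 4-fold lower were 2 (6.67%), against 16.8% of all measured genes. The level limits how much lower a gene measured in the CD45-positive array alone can be called. Without the level, 10 of the 60 were lower (16.7%), near the 18.1% of all genes (3294 of 18193). The median difference of the 30 was 0.59 on the log2 scale and that of all measured genes -0.26. The higher genes were Slc38a5, Slc6a9, Slc43a1, Slc6a20a, Slc7a5, Slc43a3, Slc6a13, Slc3a2, Slc1a5 and Slc6a4, and the lower genes were Slc38a1 and Slc7a6. An intensity is relative to all RNA of its sample, so fewer cells of a type and less RNA per cell cannot be told apart. Of the 10 higher genes, 8 had a single probe set on the array, and the call of Slc6a4 or of Slc1a5 was lost under some settings given in the closing section.

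**Figure D2:**
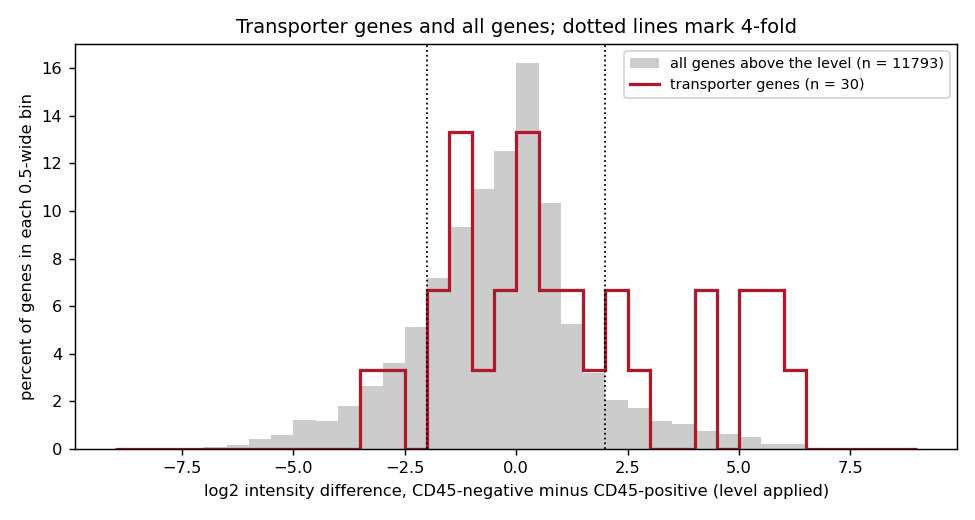
Share of genes (percent, vertical axis) in bins of the log2 intensity difference, CD45-negative minus CD45-positive (horizontal axis), for all 11793 measured genes (grey) and the 30 measured transporter genes (red line). Right of the dotted line at 4-fold lie 33.3% of the transporter genes and 8.31% of all genes.

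The heavy chain Slc3a2, also called CD98, had 17038.5 in CD45-negative against 2989.2 in CD45-positive cells, 5.70-fold higher. It was far above the level in both samples. The other heavy chain, Slc3a1, which serves cystine uptake in kidney and gut, was under the level in both arrays (80.0 and 4.3).

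Of 10 light chains, 4 were measured. Slc7a5, or LAT1, which exchanges large neutral amino acids such as leucine across the surface together with Slc3a2, had 11788.2 against 325.1, 36.3-fold higher in the CD45-negative cells. Slc7a6, which trades cationic for neutral amino acids, went the other way with 81.3 against 735.1, at least 5.78-fold lower. Its second probe set gave 51.9 against 624.3. So light chains that share this heavy chain differed in opposite directions between the samples. Slc7a7, a close relative of Slc7a6, had 240.7 against 238.6 by its brighter probe set and 38.6 against 191.5 by the other, so its direction is not settled. Slc7a11, or xCT, which imports cystine in exchange for glutamate and is known as an ATF4 target, had 140.6 against 42.1, and a bound of at least 1.39-fold is all that the level allows. The second probe set of Slc7a11 gave 118.4 against 19.8. The 6 light chains under the level in both arrays, Slc7a8, Slc7a9, Slc7a10, Slc7a12, Slc7a13 and Slc7a15, ran from 7.1 to 56.1 (CD45-negative) and from 1.7 to 49.3 (CD45-positive).

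Of 5 cationic carriers, 2 were measured, and both were brighter in the CD45-negative array without reaching 4-fold. Slc7a1, or CAT1, the general importer of arginine and lysine, had 5112.8 against 1395.1, a ratio of 3.66. All 3 of its probe sets lay on the same side, with log2 differences from 0.78 to 1.87. Slc7a4, whose substrate is uncertain, had 496.6 against 240.9, while another of its probe sets read 187.2 against 8.4. Slc7a2, Slc7a3 and Slc7a14 were under the level in both arrays, and the probe sets that stand for them did not exceed 47.3.

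The Slc43 family was the one in which all members, 3 of 3, were measured, and 2 were at least 4-fold higher. Slc43a1, or LAT3, lets branched chain amino acids, methionine and phenylalanine cross by facilitated diffusion. It had 19063.7 against 403.6, 47.2-fold higher. Slc43a3, which carries purine bases rather than amino acids, had 12987.4 against 576.9, 22.5-fold higher. Slc43a2, or LAT4, with substrates like those of Slc43a1, was under the level in the CD45-negative array (45.1) and above it in the other (180.5), at least 1.42-fold lower. Another probe set of Slc43a2 read 8.9 against 750.1, so this gene was at least 4-fold lower when the probe set brightest in either array stood for it. LAT3 was thus brighter in the CD45-negative and LAT4 in the CD45-positive array.

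The neutral exchangers of the Slc1 family were brighter in the CD45-negative array. Slc1a5, or ASCT2, which brings glutamine, serine and alanine into cells, had 9475.0 against 1956.5, 4.84-fold higher, and its second probe set gave 357.7 against 123.9. With the mean of both probe sets, its log2 difference was 1.90 and the 4-fold mark was not reached. Slc1a4, or ASCT1, a serine and alanine exchanger, had 251.3 against 50.0, at least 2.49-fold higher. All 5 glutamate carriers of this family, Slc1a1, Slc1a2, Slc1a3, Slc1a6 and Slc1a7, known from brain, retina and kidney, were under the level in both arrays, at 92.4 or less and at 52.1 or less.

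The Slc38 carriers, many of them sodium-coupled transporters of glutamine and other small neutral amino acids, differed in both directions. Of 9 on the array, 8 were measured, of which 1 passed 4-fold upwards, 1 downwards and 6 in neither direction. Slc38a5, a carrier of glutamine, glycine, serine, histidine and asparagine, had 12430.0 against 184.1, 67.5-fold higher, the largest fold of any transporter gene measured in both arrays. Slc38a3, which belongs to the same transport system, had 191.1 against 101.2. Slc38a1, a concentrating importer of glutamine and alanine, had 193.5 against 2180.1, 11.3-fold lower. Its other probe set, which is not marked as shared between transcripts, gave 252.3 against 1163.4, a log2 difference of -2.21. Slc38a2, the closest relative of Slc38a1 and a known ATF4 target, had 3817.2 against 3974.2, and its 3 probe sets ran from -1.0 to 0.78 on the log2 scale. Slc38a1 and Slc38a5 were therefore bright in different samples, while Slc38a2 stood at nearly the same level in both.

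Among the Slc38 members of internal membranes, Slc38a9, the lysosomal arginine sensor that signals to the growth kinase mTORC1, had 1359.4 against 1002.6. Its 7 probe sets ran from 0.01, which is almost no difference, to 1.87, and a probe set nearly as bright read 2097.1 against 636.8. Slc38a7, a lysosomal glutamine exporter, had 100.8 against 388.2, at least 3.05-fold lower. Slc38a6 had 66.2 against 363.4 (at least 2.86-fold lower), and Slc38a10 1876.1 against 2109.8. Slc38a4, a carrier known from liver, was under the level in both arrays (7.9 and 23.2).

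The proton-coupled carriers of the Slc36 family export amino acids from lysosomes or import them at the surface. Slc36a1 had 33.4 against 274.3 and Slc36a4 29.6 against 244.3, so both were measured only in the CD45-positive cells, with bounds of at least 2.16-fold and at least 1.92-fold lower. Slc36a2 and Slc36a3 were under the level in both arrays, from 20.5 to 97.9.

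Of 10 amino acid carriers of the Slc6 family, 4 were measured and 2 were at least 4-fold higher. Slc6a9, or GlyT1, which brings in the glycine that haem synthesis uses, had 14357.4 against 248.4, 57.8-fold higher, and its second probe set gave 6638.4 against 235.2, a log2 difference of 4.82. Both probe sets thus placed it far above the control. Slc6a20a, a proline carrier, had 4029.9 against 57.8, at least 39.9-fold higher. Its paralogue Slc6a20b was under the level in both arrays (96.3 and 27.1). Whether their probes share transcripts was not tested. Slc6a18, a kidney carrier of neutral amino acids, had 164.9 against 30.2 (at least 1.63-fold higher), and Slc6a19, its gut relative, 69.6 against 241.6 (at least 1.90-fold lower). Slc6a5, Slc6a7, Slc6a14, Slc6a15, Slc6a17 and Slc6a20b, mostly carriers of neurons and epithelia, ran from 2.8 to 96.3 and from 13.3 to 93.3.

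Among the 8 Slc6 carriers of other small molecules, 4 were measured. Slc6a13, or GAT2, which carries GABA, betaine and taurine, had 1688.7 against 92.3, at least 16.7-fold higher in the CD45-negative cells. Slc6a4, the serotonin transporter that fills platelets, had 451.4 against 59.8, at least 4.46-fold higher. All 6 platelet and megakaryocyte markers, among them Ppbp (14737.1 against 451.6) and Gp9 (2424.2 against 42.0), were higher in the same array, and their part in the value of Slc6a4 was not tested. Slc6a6, the taurine carrier, had 189.2 against 532.0, 2.81-fold lower, and its 3 probe sets above the level ran from -2.19 to -1.49. Slc6a2, the noradrenaline carrier, had 152.1 against 129.5, both close to the level. Slc6a3, Slc6a8, Slc6a11 and Slc6a12 were under it, as were Slc6a16 and Slc6a21, whose substrates are unsettled. Of the opposite-strand genes, Slc7a6os, a protein-coding gene, had 28.1 against 300.7 and the other two were under the level in both arrays.

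**Figure D3:**
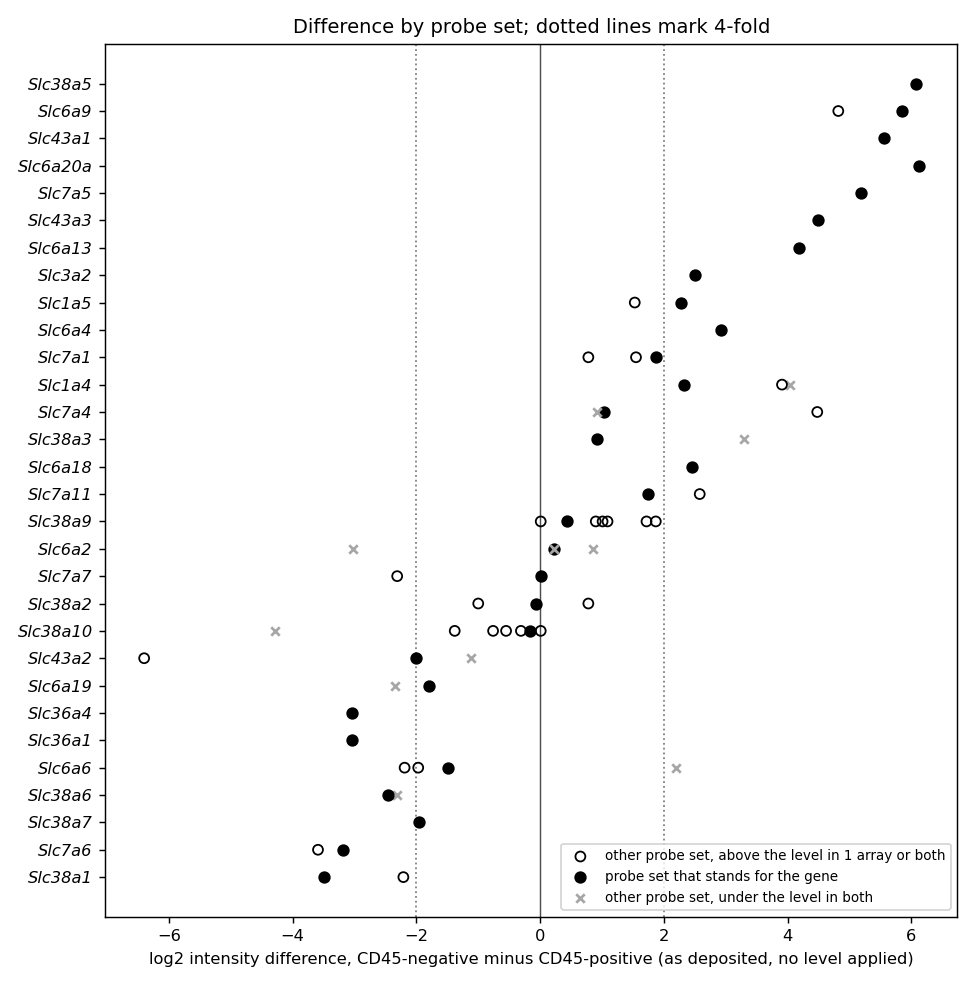
Log2 intensity difference, CD45-negative minus CD45-positive, of every probe set (horizontal axis, as deposited, no level applied) of the 30 measured transporter genes. Filled circles are the probe sets that stand for the gene, open circles others above the level, and crosses others under it in both arrays. Of 14 genes with more than 1 probe set above the level, 11 have all of them on the same side of 0.

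Probe sets gave the only repeated measure. Of the 14 transporter genes with more than 1 probe set above the level, 11 had all of these on the same side. That count takes in Slc38a9, whose smallest difference was only 0.01. The other 3 were Slc7a7, Slc38a2 and Slc38a10. None of these 3 was among the genes counted as higher or lower. Slc1a5 and Slc6a9 were the only higher genes with a second probe set.

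The stretch before the transcript start was examined for the higher genes. They were grouped by passing 4-fold in the same direction, and shared control was not tested. RefSeq sequence on build GRCm38.p6 was held for 7 of the 10, with 11 annotated starts. Slc7a5, Slc43a3 and Slc1a5 had no entry. The 250 bases before each start were searched on both strands for the GATA factor motif AGATAA, its variants ending in G or beginning with T (AGATAG, then TGATAA, and with both changes TGATAG), the ATF4 motif TGATGNAA, the E-box CACGTG of Myc and related factors, and the KLF motif CCNCNCCC. Matches of different motifs did not overlap each other. The windows of Slc38a5 and Slc43a1, the genes of large fold with 1 annotated start and an E-box, are printed with that of Slc6a4, which held the single GATA match, and that of Slc3a2, the shared heavy chain, in which none of the motifs matched. Capitals mark an E-box or a GATA match, and each runs 5′ to 3′ towards the start.
Slc38a5 (chrX:8271131-8271380, plus strand): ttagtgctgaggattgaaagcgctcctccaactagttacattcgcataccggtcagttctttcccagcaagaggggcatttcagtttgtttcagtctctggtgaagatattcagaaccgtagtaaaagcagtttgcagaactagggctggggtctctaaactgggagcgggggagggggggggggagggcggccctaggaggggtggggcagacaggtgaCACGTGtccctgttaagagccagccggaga
Slc43a1 (chr2:84840073-84840322, plus strand): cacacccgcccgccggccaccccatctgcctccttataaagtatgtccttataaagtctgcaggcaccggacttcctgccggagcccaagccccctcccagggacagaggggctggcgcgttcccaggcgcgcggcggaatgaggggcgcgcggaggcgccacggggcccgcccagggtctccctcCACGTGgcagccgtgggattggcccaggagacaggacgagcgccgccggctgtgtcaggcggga
Slc6a4 (chr11:76998347-76998596, plus strand): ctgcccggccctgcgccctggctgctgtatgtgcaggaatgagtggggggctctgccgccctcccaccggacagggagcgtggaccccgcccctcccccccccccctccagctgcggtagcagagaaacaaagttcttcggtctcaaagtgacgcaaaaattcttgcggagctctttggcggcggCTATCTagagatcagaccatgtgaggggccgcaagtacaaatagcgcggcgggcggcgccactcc
Slc3a2 (chr19:8713898-8714147, minus strand): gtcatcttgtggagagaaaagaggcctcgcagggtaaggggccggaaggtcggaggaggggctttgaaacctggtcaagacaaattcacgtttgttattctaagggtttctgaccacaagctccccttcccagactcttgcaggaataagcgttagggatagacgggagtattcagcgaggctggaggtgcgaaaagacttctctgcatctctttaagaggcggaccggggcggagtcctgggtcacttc

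The E-box was found in 2 of the 7 genes (2 of 11 windows), at 30 to 25 bases before the start of Slc38a5 and 64 to 59 bases before that of Slc43a1. Of all 32851 promoter windows of this length in the table, 6.02% held it. A GATA motif was found in 1 of the 11 windows, that of Slc6a4 at 65 to 60 bases before its start, against 26.5% of all windows. The ATF4 motif was found in 0 of 11 windows, against 3.45% of all. The KLF motif was found in 9 of 11 windows, against 45.9% of all, and windows of Slc6a9 and Slc6a13 share their gene. A match is a run of letters only, and these windows leave out distant elements and introns.

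**Figure D4:**
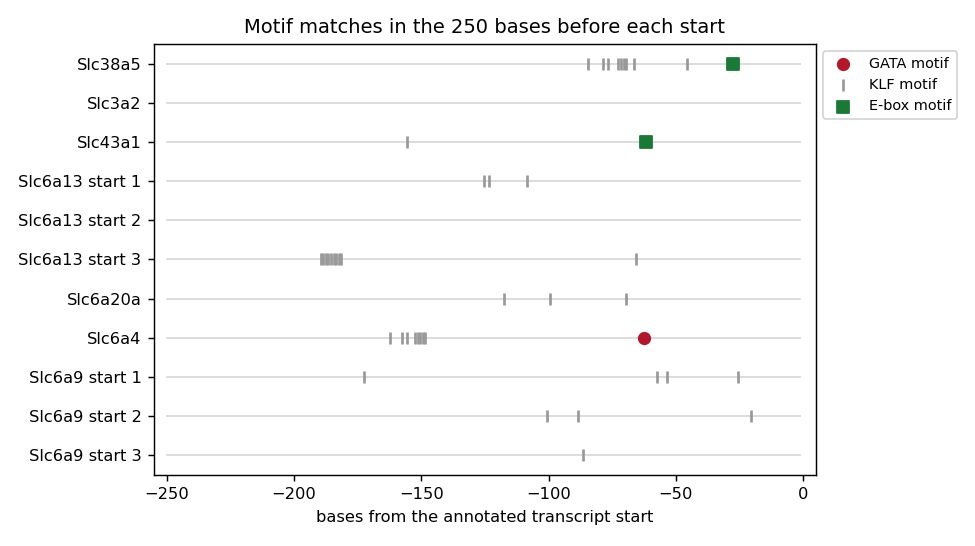
Positions of motif matches (horizontal axis, bases from the annotated transcript start) in the 11 windows of 250 bases before the starts of 7 transporter genes that were at least 4-fold higher in the CD45-negative array. E-boxes (squares) lie in the windows of Slc38a5 and Slc43a1, a GATA match (circle) in that of Slc6a4, and KLF matches (ticks) in 9 windows.

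Genes that sense, make or use amino acids were then listed, 185 in all, of which 169 were on the array and 152 were measured. The 4-fold mark was passed upwards by 25 (16.4%) and downwards by 23 (15.1%), and the median difference was 0.13. The same shares over all measured genes were 8.31% and 16.8%. The shares of higher genes were largest, among the 10 lists, for glutathione and cystine (46.2%) and the ATF4 response (38.1%).

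Of 21 measured genes of the ATF4 amino acid response, 8 passed 4-fold upwards (38.1%) and 3 downwards (14.3%). The same shares over all measured genes were 8.31% and 16.8%. The median difference was 1.18, against -0.26 over all measured genes. Asns, which makes asparagine, had 18733.8 against 529.7 (35.4-fold higher), and Trib3, a pseudokinase that feeds back on ATF4, had 9006.6 against 206.0 (43.7-fold). Atf5, a relative of ATF4, was 31.4-fold higher, the mitochondrial folate enzyme Mthfd2 10.7-fold, the stress factor Ddit3 9.31-fold by its brightest probe set, Ppp1r15a, which restores eIF2alpha, 8.06-fold, Chac1 6.14-fold and Sesn2 4.45-fold. The probe sets of Ddit3 ran from -0.05 to 3.22. Atf4 itself had 24308.3 against 7413.7, a ratio of 3.28, and is controlled largely through translation, which arrays do not read. At least 4-fold lower were Ddit4 (231.7 against 3227.0), Atf3 (18.8 against 1146.7) and Phgdh (440.4 against 3362.6), the entry enzyme of serine synthesis. Members of the list thus differed in both directions. The share of higher genes was above that over all measured genes, and the share of lower genes was near it.

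Of the 5 genes of eIF2alpha kinases and their partner, 1 was higher and 2 lower. Eif2ak1, the haem-regulated kinase of red cell precursors, had 30155.1 against 1390.0, 21.7-fold higher. Eif2ak4, the sensor of uncharged tRNA, had 70.7 against 707.3, at least 5.56-fold lower, and Eif2ak3, the kinase of the endoplasmic reticulum, 287.7 against 1352.3, although the probe sets of Eif2ak3 ran from -2.23 to 4.31. Eif2ak2 (896.7 against 885.1) and Gcn1 (332.1 against 583.7) were in neither class. After quantile normalization, 1 gene of this list was at least 4-fold lower. With the mean of probe sets, 1 of 4 measured genes was, and the list median moved from -0.81 to 0.12.

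Glutathione is made from glutamate, cysteine and glycine. Of 13 measured genes of its synthesis and of cystine use, 6 passed 4-fold upwards and 1 downwards, and the median difference was 1.26. The subunits of the first enzyme, Gclm (25912.8 against 658.5, 39.4-fold) and Gclc (6.23-fold), were higher, as were Chac2 (36.6-fold) and Chac1, which break glutathione down, and the peroxidases Gpx4 (6.27-fold) and Gpx1 (4.24-fold). Ggct, which acts on gamma-glutamyl amino acids, was at least 10.4-fold lower by its brightest probe set, while its probe sets ran from -4.14 to 2.28. Genes of serine and glycine synthesis and of the one-carbon cycle, taken as 1 list, differed in both directions. Of 13 measured, 3 were higher (23.1%, against 8.31% of all measured genes) and 3 lower (23.1%, against 16.8%). Higher were Tyms (at least 18.5-fold, probe sets from 0.26 to 4.3), Mthfd2, and Shmt1 (7.97-fold, probe sets from -4.94 to 2.99). Lower were Phgdh (7.64-fold), Gcsh of the glycine cleavage system (6.37-fold) and the purine enzyme Atic (4.03-fold). With probe sets averaged, 1 gene of the serine, glycine and one-carbon list was at least 4-fold higher.

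Mitochondrial carriers of amino acids and related compounds included 2 higher genes of 14 measured (14.3%, against 8.31% of all measured genes). Slc25a38, which brings glycine into mitochondria for haem synthesis, had 6441.5 against 506.9, 12.7-fold higher. Slc25a39, the mitochondrial glutathione carrier, had 81969.8 against 6127.5, 13.4-fold higher. Slc25a15, an ornithine carrier, was at least 5.93-fold lower, but with the mean of probe sets 0 genes of this list were. The surface glycine carrier Slc6a9 and the mitochondrial glycine carrier Slc25a38 were thus higher in the same sample. Among membrane carriers and partner proteins outside the chosen families, 13 genes were measured. Slc16a10, an exporter of aromatic amino acids, had 4550.1 against 181.8, 25.0-fold higher. The lysosomal carriers Slc66a1 (at least 4.54-fold), Slc15a3 (at least 6.14-fold) and Slc15a4 (5.84-fold, probe sets from -2.55 to 1.30) were lower. Cltrn, a partner of Slc6a18 and Slc6a19, had 142.6 against 1.5, and a bound of at least 1.41-fold higher is all that the level allows.

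Amino acid sensing by mTORC1 was covered by 36 measured genes, of which 4 passed 4-fold upwards and 6 downwards (11.1% and 16.7%), shares near those over all genes. Higher were Fnip2 (26.4-fold), the Rag GTPase Rragd (7.71-fold), Nprl3 (5.86-fold) and the leucine sensor Sesn2. Lower were Sesn3 (at least 15.0-fold), Lamtor4 (9.77-fold), Lamtor2 (4.78-fold), Wdr24 (at least 4.51-fold), Nprl2 (4.49-fold) and Flcn (4.06-fold, probe sets from -2.02 to 0.45). Mtor had 775.5 against 995.5. After quantile normalization, 3 genes of this list were at least 4-fold lower.

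Of 22 cytosolic tRNA synthetases and their scaffold proteins, all measured in both arrays, 2 were at least 4-fold higher (9.09%) and 0 lower. At 4-fold, the share of higher genes was near the 8.31% over all measured genes, of which 16.8% were lower. At 2-fold, 10 of the 22 were higher and 0 lower, against 16.8% and 33.3% of all measured genes. The median difference of the list was 0.50, against -0.26 over all measured genes. The 2 genes at least 4-fold higher are named next. These were Aars (12855.8 against 1154.2, 11.1-fold), which charges alanine, and Cars (6.42-fold), which charges cysteine. Nars (3.80-fold), Sars (3.64-fold), Hars (3.53-fold) and Gars (3.45-fold) came next and stayed under 4-fold. Of 14 measured genes of glutamine, glutamate and arginine use, 14.3% were higher and 14.3% lower, against 8.31% and 16.8% of all measured genes. The polyamine enzyme Odc1 (38787.4 against 3453.1, 11.2-fold) and Asns were higher, and Glud1 (15.0-fold) and Gfpt1 (6.86-fold, probe sets from -2.85 to 2.89) lower. Of 10 measured genes of branched chain and tryptophan breakdown, 0 were higher and 3 lower, against 8.31% and 16.8% of all measured genes. The lower genes were Kmo (at least 11.4-fold), Kynu (probe sets from -5.23 to 4.4) and Bckdhb. With a level set for each array, 1 of these was lower, and the bounds of Kynu (at least 3.49-fold) and Bckdhb (at least 3.30-fold) against 127 do not reach 4-fold.

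**Figure D5:**
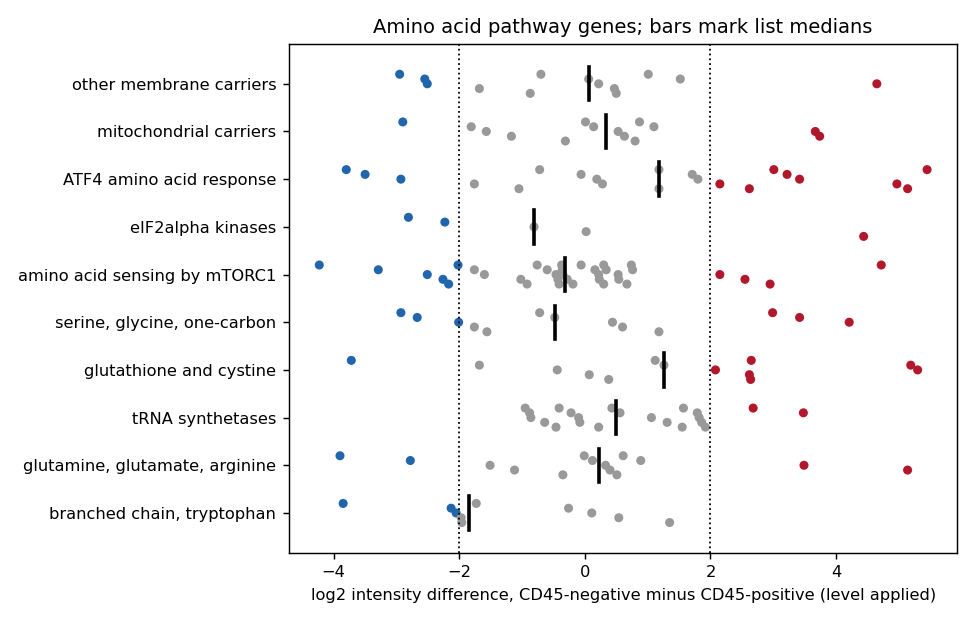
Log2 intensity difference, CD45-negative minus CD45-positive (horizontal axis, level applied), of measured genes in 10 lists of amino acid sensing, synthesis and use, with each gene a point and each list's median a bar. Points past the dotted 4-fold lines are red (higher) or blue (lower), and medians run from -1.84 for branched chain and tryptophan breakdown to 1.26 for glutathione and cystine.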

How the data were processed

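The deposited values were linear intensities, from 0.1 to 104602.6 over 45037 probe sets. Per the labels' protocols, an Affymetrix 3' kit made the biotinylated cRNA, and the submitters' processing notes name GCRMA and Partek 6.6 without saying what each made, so the scaling step is not settled. Values were taken to log2 with no further normalization. The platform annotation gave 34945 probe sets 1 symbol, 932 several and 9160 none, and RefSeq identifiers matched all 63 symbols of the rule. Each gene was represented by its probe set of highest mean log2 intensity. Every transporter gene measured in at least 1 array is named, and of each list the members at least 4-fold apart, with further genes chosen after their values were seen. The members and lists were chosen with earlier results of these data known. Of the 185 listed pathway genes, 169 were on the array under a symbol of their own. Array number, 1 per group, limits precision, so no p-value is given. Alternatives covered the level, probe set, scaling, pseudocount and threshold. Python 3.11.15, numpy 2.4.6, pandas 2.3.3 and matplotlib 3.10.9 were used, and the steps were tested on simulated data.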

Additional observations from a re-analysis of the deposited data

How the results depend on the processing

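Of the 12 transporter genes past 4-fold, all 12 stayed past it with a level set for each array, with no level, without probe sets marked as shared, after quantile normalization or median centring, and with the probe set brightest in either array, a choice added after seeing the data. Slc6a4 fell short with a stricter level (99th percentile, 160) or with log2(value + 16), and Slc1a5 with the mean of probe sets; 9 genes were then higher. With no level, which takes in genes near background, 15 of 60 transporter genes were higher (25.0%, against 15.9% of all genes), a smaller contrast than with the level (33.3% against 8.31%). At 2-fold, 13 of 30 were higher (43.3%, against 16.8%). Lower transporter genes numbered 10 with no level (16.7%, against 18.1% of all genes), a smaller contrast than with the level (6.67% against 16.8%). They numbered 4 with the probe set brightest in either array (13.3%, against 17.6%), with Slc43a2 and Slc6a6 added. At 2-fold they numbered 8 (26.7%, against 33.3%). Over all genes, 2885 were higher and 3294 lower with no level, and 1976 and 3922 at 2-fold. Over the pathway lists, 43 were higher (28.3%) and 38 lower (25.0%) at 2-fold, against 16.8% and 33.3% of all genes. Quantile normalization moved the median of all genes from -0.26 to 0.01 and that of the transporter genes from 0.59 to 0.83. No paired analysis was possible because each group has 1 array, and no replicate could be left out. Signal near background limits genes dim in either array to bounds.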
